A study of Mus musculus with 6 samples.

Results

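The mitochondrial protein import genes of mouse cerebral cortex were taken as every transcript of a gene whose symbol begins with Timm, Tomm, Pam16 or Chchd, a choice by name that used no measured value. It gave 163 transcripts of 37 genes, out of 141196 transcripts of 52962 genes in the whole table. Of these, 109 transcripts had at least 1 read with a tail estimate and 54 had none. The 6 samples were poly(A) RNA from C57BL/6 cortex, 3 wild type (WT) and 3 Fmr1 knockout (KO), read as native RNA molecules on a nanopore PromethION instrument. Fmr1 encodes FMRP, which binds many neuronal mRNAs and holds back their translation, and the series measured tail lengths with and without it. The labels give neither the age and sex of the animals, nor the knockout allele, nor whether each sample is a different animal, so p-values measure the spread between these samples, which may be technical.

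Most mitochondrial proteins are made in the cytosol and carried into the organelle. The TOM complex of the outer membrane receives them, small TIM chaperones escort hydrophobic proteins across the intermembrane space, and the TIM22 and TIM23 complexes pass them into or through the inner membrane. A motor built around the matrix Hsp70 pulls presequence proteins inward. Neurons depend on the pathway because mitochondria have to be renewed far from the cell body. The name rule also takes in genes that are no translocase subunits: Tomm34, a cytosolic co-chaperone, Timmdc1, an assembly factor of respiratory complex I, and the Chchd genes for twin CX9C proteins of the intermembrane space, whose cysteine pairs are oxidised by Chchd4. Chchd1 belongs to the mitochondrial ribosome, and Chchd3 and Chchd6 to the MICOS complex that shapes the cristae.

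The poly(A) tail is added at the 3′ end of the mRNA, usually a short distance after a hexamer such as AATAAA or ATTAAA. The last 30 bases before the tail are shown for the genes whose tails or isoforms the results turn on, as annotated by GENCODE release 21 on mm10, with a matched hexamer in capitals. The first lines are 3 short-tailed genes and Tomm20, the most-read TOM gene, and the rest are genes with longer tails or with isoforms compared here.
Tomm7, chr5:23838944-23838973, minus strand: ttggcctttaAATAAAactgtttagcatca
Chchd2, chr5:129881156-129881185, minus strand: taaaaaaAATAAAttggttattctgaagtg
Timm8b, chr9:50605291-50605320, plus strand: cacaccagttAATAAAtgtgaagtctccaa
Tomm20, chr8:126930667-126930696, minus strand: caAATAAAcaccttcatgatttattactga
Tomm70a, chr16:57156676-57156705, plus strand: aacaatttttAATAAAaagttttaaaagtg
Timm29, chr9:21595941-21595970, plus strand: gtgtgtatgaaatagtcttattcaccctcc
Tomm34, chr2:164053540-164053569, minus strand, shared by its 3 read isoforms: tgctgttgcATTAAAaggttttcttctata
Timm44, chr8:4259731-4259760, minus strand, shared by its coding and retained-intron isoforms: cctAATAAAacaccaaagcgcagaagagca
Timm9 isoform ENSMUST00000166120.8, chr12:71123174-71123203, minus strand: attactaaaagtaAATAAAtgagtatcatt
Timm9 isoform ENSMUST00000021486.9, chr12:71123173-71123202, minus strand: ttactaaaagtaAATAAAtgagtatcattg
Tomm40 isoform ENSMUST00000093552.11, chr7:19701313-19701342, minus strand: caaaaaatatacgtggaaaaaaaaatagga
Tomm40 isoform ENSMUST00000032555.9, chr7:19701329-19701358, minus strand: aaaaaaacttaaaaaacaaaaaatatacgt
Tomm6 isoform ENSMUST00000113302.9, chr17:47686646-47686675, minus strand: caaaaatcaAATAAAcatgacttgtatttc
Tomm6 isoform ENSMUST00000113301.1, chr17:47686740-47686769, minus strand: aaagatttcaAATAAAgcctgcacataaaa

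Both motifs were searched on the transcript strand within these last 30 bases. Of the 51 import transcripts with enough reads for a tail test, 35 held one of them (68.6%), AATAAA in 25 and ATTAAA in 10, with none holding both. Over all 15917 tested transcripts with an annotated end, 71.7% held one, AATAAA in 58.6% and ATTAAA in 15.2%. Genes at both ends of the tail range held the same hexamer: Tomm7, with the shortest tail, and Timm9, with one of the longest, end 14 and 11 bases after an AATAAA. In WT the median tail was 127 nt over import transcripts with a hexamer and 119.7 nt over the 16 without, against 145 and 140.3 nt over all transcripts. A match describes these letters and not the site that was used.

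The libraries held 2404074 to 3849077 reads with a tail, between 74.8% and 85.0% of their reads. Fmr1 was lower in every KO library, at 41.7, 45.1 and 46.4 CPM (counts scaled to library size) in WT and 10.9, 11.8 and 8.22 in KO (log2 change -2.13 ± 0.15 SE; edgeR, adjusted p = 1.22e-10). Every marker gene listed for cortical cell types had reads, including those of excitatory and inhibitory neurons. Import genes held 81114 tail reads, 0.404% of all, and Chchd2 and Chchd10 together held 33.3% of these. No read was assigned in any library to Tomm20l, Timm8a2 or the pseudogene Chchd2-ps, which limits each to 0.773 to 1.27 CPM per library (the level of 3 counts, for counting error only). The antisense RNA Tomm6os had 57 reads, too few for a tail test, so tails were tested for 33 genes, each with at least 10 tail reads in every sample, and abundance for 34.

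In WT cortex most import mRNAs carried shorter tails than the typical gene. A gene's tail is here the mean over all its reads. The median over the 33 genes was 117.5, 122.9 and 123.2 nt in the WT samples, or 121 ± 3.20 nt (SD, n = 3). The same median over all 11323 genes was 141.6, 145.6 and 146.6 nt. Of the 33 import genes, 27 lay below the median gene (144.7 nt), 25 of them below the lower quartile (131 nt), and 6 lay above the median. Other nuclear genes for mitochondrial or ribosomal proteins also had medians below that of all genes. The median was 107 ± 1.09 nt over 39 complex I subunits, 125 ± 0.75 nt over 80 mitochondrial ribosomal proteins and 84.03 ± 0.69 nt over 85 cytosolic ribosomal proteins. Import genes thus lay between complex I subunits and mitochondrial ribosomal proteins in this order, with WT values close to those of the latter.

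**Figure D1:**
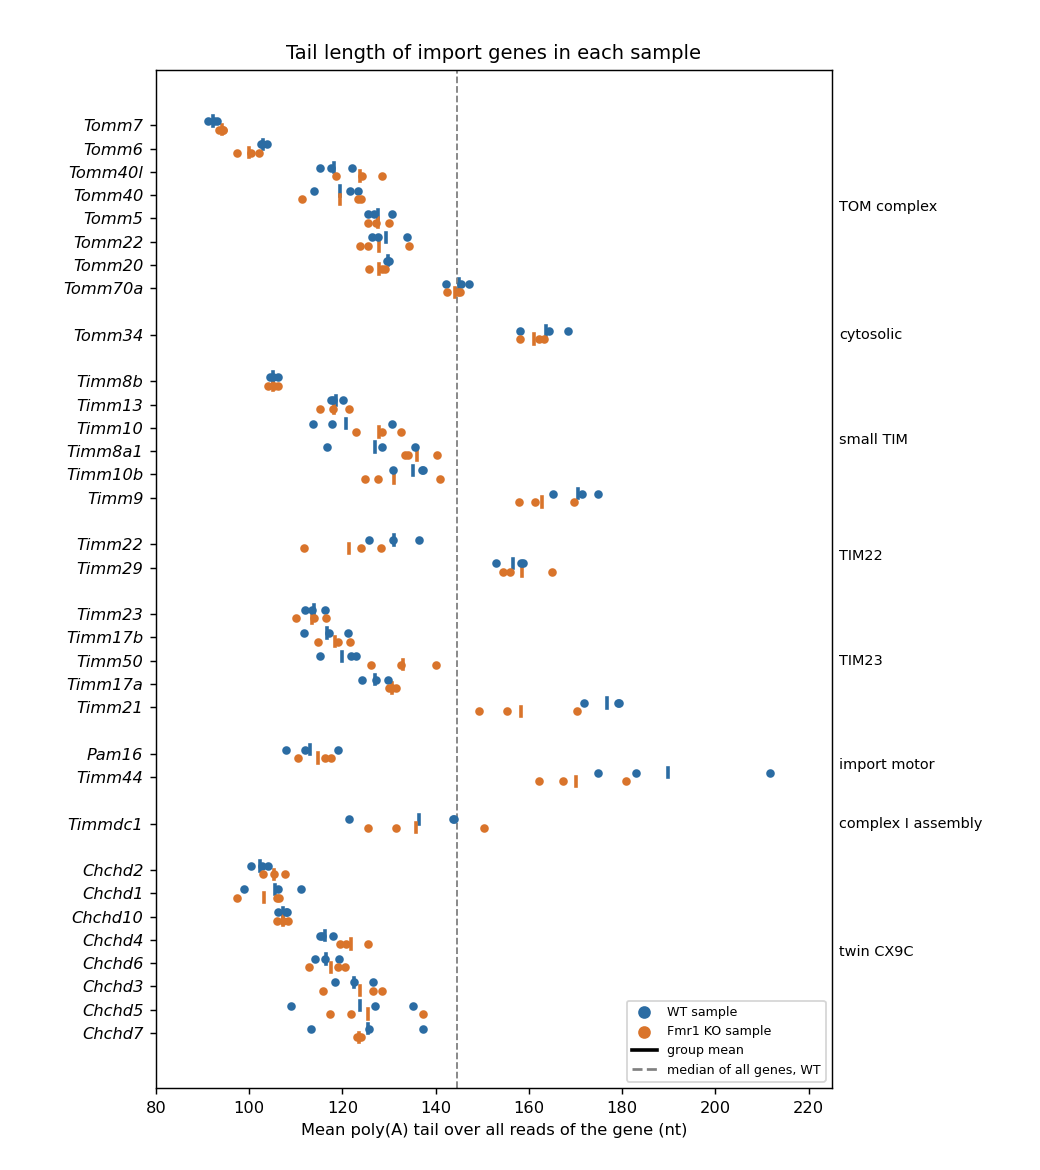
Mean poly(A) tail in nt of the 33 import genes tested, by role, with 1 point for each of the 3 WT (blue) and 3 Fmr1 KO (orange) samples and a short line at each group mean; the dashed line is the WT median over all genes. Of the 33 genes, 27 lie below the median gene in WT, and Timm29, Tomm34, Timm9, Timm21 and Timm44 stand well above it.

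Within the TOM complex, tails ranged from 92.2 to 144.9 nt in WT. Tomm7, a small subunit that tunes the stability of the complex, had the shortest tail of all import genes, with 91.1, 92.4 and 93.03 nt in WT against 94.4, 94.5 and 93.6 nt in KO. Tomm6, another small subunit, followed with 102.6, 102.6 and 103.9 nt in WT against 100.4, 97.4 and 102.0 nt in KO. The third small subunit, Tomm5, stood apart from them at 128 ± 2.64 nt in WT, so the small subunits did not form 1 tail class. The channel gene Tomm40 (120 ± 4.99 nt) and its paralog Tomm40l (118 ± 3.50 nt) differed by less than their spread. The receptor genes were longer: Tomm22 had 129 ± 4.03 nt, Tomm20 had 130 ± 0.15 nt, and Tomm70a, which receives carrier proteins with their chaperones, had 144.9 ± 2.50 nt, close to the median gene. The cytosolic co-chaperone gene Tomm34 lay well above them, with 158, 168 and 164 nt in WT against 162, 163 and 158 nt in KO.

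The small TIM chaperones spanned 105.2 to 170.4 nt in WT. Timm8b had 105.1, 104.3 and 106.2 nt in WT against 106.2, 103.9 and 105.3 nt in KO, among the tightest sets of values in the list. Timm9, whose protein forms hexamers with that of Timm10, had 165, 175 and 171 nt in WT against 161, 170 and 158 nt in KO. Timm10 itself had 121 ± 8.79 nt in WT, so the samples of these hexamer partners did not overlap. Timm13 had 119 ± 1.36 nt, Timm8a1 had 127 ± 9.48 nt and Timm10b, the small TIM of the carrier translocase, had 135 ± 3.57 nt. Timm22, the core of that translocase, had 131 ± 5.40 nt in WT, and its partner Timm29 had 157 ± 3.22 nt.

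In the TIM23 complex, 4 of 5 genes had tails below the lower quartile of all genes. The channel gene Timm23 had 112, 116 and 113 nt in WT, its partners Timm17b and Timm17a had 117 ± 4.69 and 127 ± 2.84 nt, and the receptor gene Timm50 had 120 ± 4.17 nt. Timm21, which links the complex to TOM and to the respiratory chain, was the exception with 179, 179 and 172 nt. Its value rests on 207 reads in all, the smallest number of any TIM23 gene. The main Timm21 transcript alone had a shorter WT mean, given below. In the motor, Pam16, a J-like regulator of the matrix Hsp70, had 113 ± 5.62 nt, while Timm44, which tethers that chaperone to the channel, had the longest mean tail of the list. Timm44 read 183, 212 and 175 nt in WT against 167, 162 and 181 nt in KO, with the widest WT spread of the 33 genes (SD 19.4 nt). Its gene mean takes in a retained-intron RNA at 235 nt in WT, with 28.3% of its reads. The coding Timm44 mRNA alone had 167 ± 7.68 nt in WT, below the gene means of Timm9 and Timm21, which take in all their isoforms. The most-read Timm9 transcript alone had 165 ± 4.05 nt, so these 2 transcripts differed by less than their spread. Timmdc1 had 136 ± 12.9 nt on 126 reads.

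The 8 Chchd genes, the twin CX9C genes taken by the name rule, had a narrow range, 102.4 to 125.5 nt in WT. Twin CX9C genes outside the rule, listed with the wider pathway below, ranged more widely, from 100.9 ± 4.69 nt (Cox17) to 168 ± 22.9 nt (Cmc4). Chchd2 and Chchd10, paralogs of the intermembrane space in which mutations cause Parkinson's disease and motor neuron disease in humans, were the most-read import genes, at 748, 744 and 792 CPM and 561, 612 and 598 CPM in WT. Their tails were 102.4 ± 1.80 and 107.3 ± 1.07 nt, with all WT samples of Chchd10 above those of Chchd2. In KO the 2 genes overlapped, with 105.4, 103.0 and 107.7 nt for Chchd2 and 108.3, 106.0 and 107.2 nt for Chchd10. Chchd1 had 105 ± 6.13 nt, the oxidoreductase gene Chchd4 had 116 ± 1.51 nt, and the MICOS genes Chchd6 and Chchd3 had 117 ± 2.50 and 122 ± 4.11 nt. Chchd5 and Chchd7 had 124 ± 13.4 and 125 ± 12.01 nt. Across the ordered list of 33 genes, 29 of 32 neighbouring pairs had overlapping WT samples. The 3 pairs apart were Tomm7 from Chchd2, Tomm6 from Timm8b, and Tomm70a from Timm29.

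Tail length went with transcript length among import genes much as it did among all genes. Spearman's rho with the length of the most-read transcript was 0.515 over the 33 genes and 0.523 over all 11323. It was 0.365 and 0.475 with coding length, 0.439 and 0.370 with the length of the 3′ untranslated region, and -0.487 and -0.310 with CPM. These are descriptions across genes of the same libraries, which are not independent replicates. The median most-read transcript was 1515 bases for import genes and 3132 for all genes. The 17 shorter import transcripts (median 990 bases) had a median WT tail of 117 nt and the 16 longer ones (median 2618 bases) 130.4 nt. Single genes departed from this relation in both directions. Timm9, with 990 bases, had a tail of 170 nt, whereas Timm17a, with 7280 bases and the longest most-read transcript in the list, had 127 nt.

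**Figure D2:**
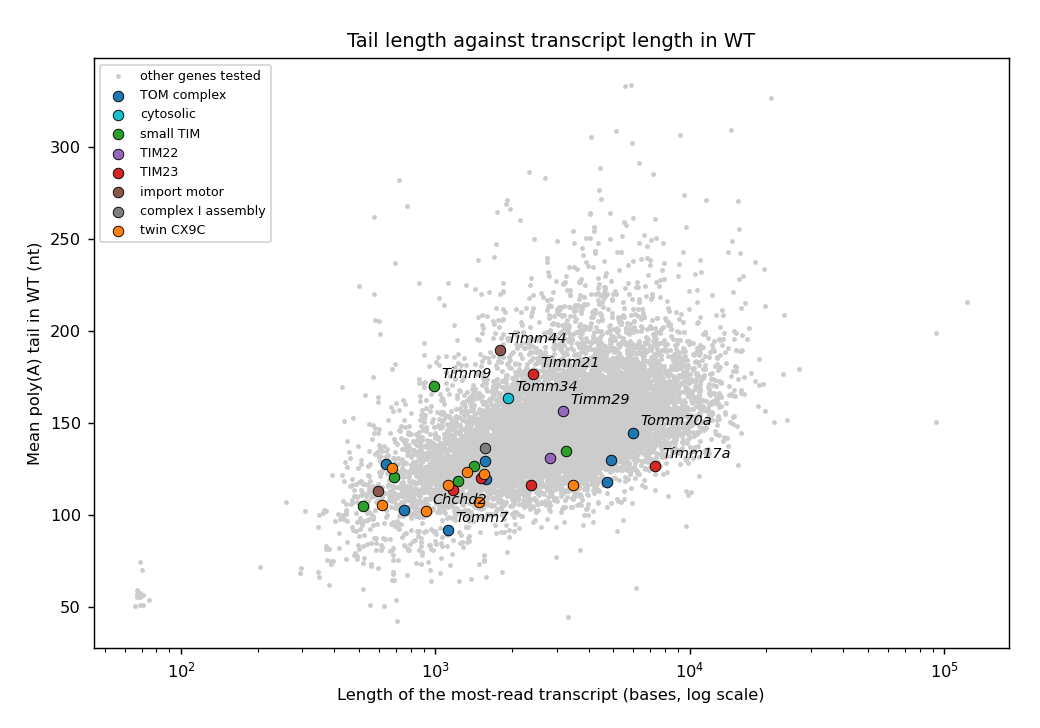
Mean poly(A) tail in WT in nt against the length of the most-read transcript in bases (log axis) for 11323 genes, with the 33 import genes coloured by role. Import genes sit mostly to the lower left, with Timm9 high for its 990 bases and Timm17a low for its 7280.

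Tail length was then compared between KO and WT, the question of the series. No import gene passed: limma on log2(nt + 1), with Benjamini-Hochberg adjustment over all genes tested and a threshold of 0.05, called 0 of 33, where the share of all genes called was 0%. At an unadjusted p under 0.05 there were 2, against 6.55% of all genes. The fitted change was below 0 for 19 genes and above 0 for 14, where 61.7% of all genes were below 0. With each sample centred to the same median, 9 were below 0 and 24 above, where 52.5% of all genes were above. The uncentred split also turned when 1 library was left out, to 13 below and 20 above without WT replicate 3 and to 15 below and 18 above without WT replicate 2 or KO replicate 2. The median of the 33 tails was 124.0, 123.9 and 126.6 nt in KO, so all 3 KO samples lay above the WT samples, and the means differed by 3.61 nt (KO minus WT, no test). The median of the gene-wise log2 changes was nevertheless -0.001, the opposite sign. The difference was 0.774 nt without the Chchd genes and 1.77 nt without WT replicate 1, whose median was the lowest of the 6.

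The 2 genes with an unadjusted p under 0.05 both encode TIM23 subunits and went opposite ways. Timm50 had 115, 123 and 122 nt in WT against 126, 140 and 133 nt in KO, with all KO samples above all WT samples (log2 change 0.15 ± 0.05 SE; limma, adjusted p = 0.70). Timm21 had KO values of 170, 149 and 155 nt, all below its WT values given above (log2 change -0.16 ± 0.06; limma, adjusted p = 0.74). The next smallest p-values belonged to Chchd4 (log2 change 0.07 ± 0.03), Timm44 (-0.15 ± 0.08) and Timm22 (-0.11 ± 0.06), with limma adjusted p between 0.80 and 0.81. The change was -0.07 for Timm44 without WT replicate 2 and -0.05 for Timm22 without KO replicate 2. Chchd4 had 115, 118 and 116 nt in WT against 125, 121 and 119 nt in KO, without overlap, while Timm44 and Timm22 overlapped between the genotypes. In all, 7 of 33 genes had genotypes that did not overlap, against 11.7% of all genes. The KO was longer for Timm17a, Timm50, Tomm7 and Chchd4 (3.22% of all genes) and shorter for Timm21, Tomm20 and Tomm6 (8.44% of all genes). For Tomm7, Tomm20 and Tomm6 the separation was of 1.99, 1.93 and 3.09 nt between means.

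Among single transcripts, limma called 0 of 51 import transcripts (0% of all 16168 tested), and 4 had an unadjusted p under 0.05, against 5.84% of all. The smallest p belonged to a retained-intron RNA of Tomm34 (ENSMUST00000132602.1, 136 reads in all). Its tail was 171, 172 and 174 nt in WT against 146, 145 and 152 nt in KO. The highest KO sample lay well below the lowest WT sample (log2 change -0.22 ± 0.05; limma, unadjusted p = 0.00234, adjusted p = 0.70). The coding Tomm34 isoforms, which end at the same base, overlapped between genotypes, with 162 ± 5.79 and 163 ± 2.34 nt for the most-read one in WT and KO. The next were a retained-intron RNA of Timm44 (ENSMUST00000149827.7, log2 change -0.39 ± 0.14, or -0.25 without KO replicate 2; limma, adjusted p = 0.81), the shorter Tomm6 isoform (ENSMUST00000113301.1, -0.15 ± 0.05; limma, adjusted p = 0.81) and the main Timm50 transcript (ENSMUST00000081946.4). The Tomm6 isoform had 109.5, 109.2 and 102.3 nt in WT against 90.6, 98.2 and 100.6 nt in KO, again without overlap. The fifth smallest p was that of the main Timm21 transcript (ENSMUST00000025547.3), with 161 ± 5.15 nt in WT and 148 ± 5.69 nt in KO. In all, 9 of 51 transcripts had genotypes apart, against 10.9% of all.

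Isoforms of 1 gene were compared with each other over all 6 samples. In 13 import genes the 2 most-read isoforms each had at least 10 tail reads in every sample, and limma called 3 of them, where 14.1% of all 3613 such genes were called. Tomm40 had a shorter tail on its main isoform (ENSMUST00000093552.11, 1335 reads) than on the second (ENSMUST00000032555.9, 148 reads). The main isoform had 112.8, 119.6 and 120.7 nt in WT against 120.8, 122.5 and 110.8 nt in KO. The second had 121, 141 and 147 nt in WT against 141, 141 and 116 nt in KO. It was longer in 6 of 6 samples (log2 main over second -0.19 ± 0.04; limma, adjusted p = 0.0169). The annotated ends of the pair lie 16 bases apart, and neither holds AATAAA or ATTAAA in its last 30 bases.

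Timm9 went the other way, with the longer tail on its most-read isoform (ENSMUST00000166120.8, 446 reads). That isoform had 162, 170 and 163 nt in WT against 166, 167 and 159 nt in KO. The second (ENSMUST00000021486.9, 136 reads) had 142, 154 and 155 nt in WT against 138, 162 and 129.5 nt in KO. The most-read isoform was longer in 6 of 6 samples (log2 0.17 ± 0.05; limma, adjusted p = 0.0475), although the annotated ends differ by 1 base. Both isoforms were longer than the median gene in WT.

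For Timm44 the pair was the coding mRNA (ENSMUST00000003029.13, 376 reads) and the retained-intron RNA, which share an annotated end. The coding mRNA had 161, 176 and 164 nt in WT against 163, 167 and 171 nt in KO. The retained-intron RNA had 224, 263 and 219 nt in WT against 188, 147 and 208 nt in KO, so the coding mRNA was the shorter in 5 of 6 samples (log2 -0.29 ± 0.07; limma, adjusted p = 0.0227). In WT samples alone the difference was -0.48 and in KO samples alone -0.10. Genotypes overlapped for the coding mRNA and not for the retained-intron RNA. A test of whether the isoform difference depends on genotype called 0 of 13 genes (0% of all), with Timm44 at log2 0.38 ± 0.13 (limma, unadjusted p = 0.0207, adjusted p = 0.83). The retained-intron RNA was also at 9.57, 11.4 and 6.04 CPM in WT and 4.77, 5.56 and 7.42 CPM in KO, which overlap (edgeR, adjusted p = 0.46). Nanopore RNA reads start at the 3′ end and may stop early, so a read that ends before the distinguishing exon can be given to either isoform.

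The isoform calls were close to the threshold. The number called was 0 without WT replicate 2, WT replicate 3 or KO replicate 1, and 1 without WT replicate 1 or KO replicate 3. It was 3 without KO replicate 2, where Timm13 was called and Tomm40 was not. It was 0 with replicate number added to the fit. The direction was the same in all of these for Tomm40, Timm9 and Timm44. In the other 10 genes the pair did not pass. Among them the Tomm34 coding pair, with 1 shared end, differed by -0.07 nt, and the Tomm6 pair, with ends 94 bases apart, by -1.62 nt (most-read minus second).

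**Figure D3:**
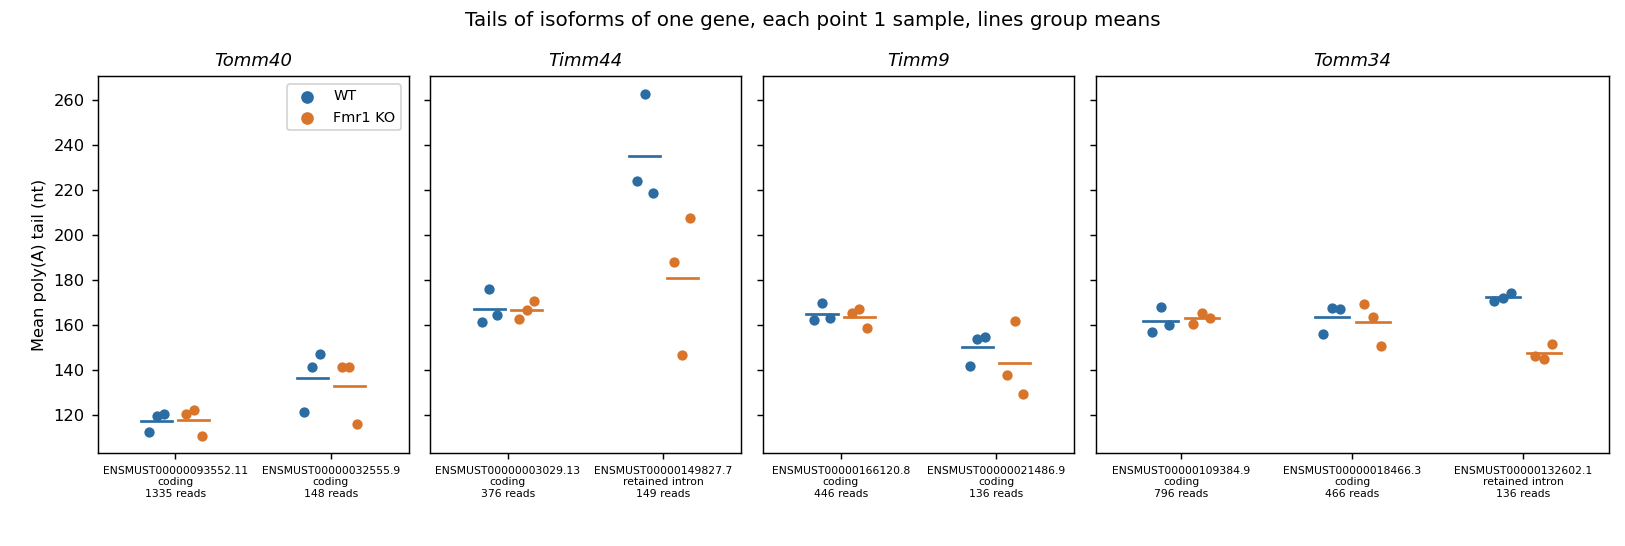
Mean poly(A) tail in nt of the most-read isoforms of Tomm40, Timm44, Timm9 and Tomm34, with 1 point per sample (3 WT in blue, 3 Fmr1 KO in orange) and lines at group means; labels give the transcript, its class and its reads over all samples. The retained-intron RNAs of Timm44 and Tomm34 show WT samples above all KO samples, while their coding isoforms overlap.

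Abundance was tested on the numbers of reads behind the tails. CPM is not divided by transcript length. In this bulk tissue, fewer cells of a type and less RNA per cell cannot be told apart. No import gene passed: edgeR called 0 of 34, where 1.03% of all 12543 genes were called. DESeq2 called 0, where it called 81 of all 22208 genes with reads, a total that includes genes without an adjusted p. It gave no adjusted p for some import genes, among them Chchd5, Tomm40 and Chchd7, and so could not call these. At an unadjusted p under 0.05 there were 9 with edgeR, against 12.9% of all genes, and 1 with DESeq2. The 9 were all higher in KO, against 6.76% of all genes higher at that p. The edgeR count was 5 without KO replicate 1, KO replicate 3 or WT replicate 2, and 6 on recovered reads. The fitted change was above 0 for 25 genes and below 0 for 9 (median log2 0.06), where 49.4% of all genes were above 0 (median -0.003). On all reads, recovered from the deposited RPM (reads of each library scaled to a common total) and tested in edgeR, the split was 26 above and 8 below, where 49.4% of all genes were above. With limma on log2(RPM + 1), which has no TMM scaling, it was 19 above and 15 below, where 39.6% of all genes were above.

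The 9 genes were 3 TOM genes, 2 small TIM genes, 3 twin CX9C genes and the cytosolic Tomm34, with none from TIM22, TIM23 or the motor. Timm13, whose protein forms a hexamer with that of Timm8a1 in the intermembrane space, had the smallest p. It stood at 129, 115 and 127 CPM in WT and 144, 155 and 137 CPM in KO, without overlap (log2 change 0.22 ± 0.08 SE; edgeR, unadjusted p = 0.00605, adjusted p = 0.18). Chchd5 had 7.05, 8.19 and 8.76 CPM in WT and 10.3, 14.8 and 11.4 CPM in KO, also without overlap, on 196 reads in all (log2 change 0.57 ± 0.21; edgeR, adjusted p = 0.24). Its log2 change was 0.17 on recovered reads and 0.14 with limma on RPM. Tomm40 stood at 67.8, 64.2 and 74.4 CPM in WT and 77.8, 79.3 and 83.9 CPM in KO (log2 change 0.22 ± 0.09; edgeR, adjusted p = 0.25). Chchd6 had a log2 change of 0.21 ± 0.08, Chchd7 of 0.30 ± 0.11, Tomm34 of 0.23 ± 0.09, Tomm5 of 0.18 ± 0.08, Tomm22 of 0.16 ± 0.07 and Timm9 of 0.26 ± 0.12, all with edgeR adjusted p from 0.25 to 0.36. Without WT replicate 2 that of Chchd6 was 0.14.

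By role, the fitted change was above 0 for 8 of 8 TOM genes tested, where 49.4% of all genes were above 0. The TOM count was also 8 on recovered reads and 4 with limma on RPM. For Tomm7, Tomm6, Tomm20, Tomm70a and Tomm40l the edgeR change was smaller than its SE. The fitted change was above 0 for 6 of 6 small TIM genes under all 3 fits. For the 8 twin CX9C genes the counts above 0 were 5, 6 on recovered reads and 4 with limma on RPM. For the 5 TIM23 genes they were 3, 1 and 0 in the same order, and for the 2 TIM22 genes 0, 1 and 1. The most-read genes had small differences. Chchd2 was at 748, 744 and 792 CPM in WT and 766, 753 and 783 CPM in KO, Tomm20 at 302, 308 and 308 CPM in WT and 318, 297 and 321 CPM in KO, and Timm23 at 129, 125 and 135 CPM in WT and 139.7, 122 and 142 CPM in KO. These 3 genes overlapped between the genotypes. Genotypes did not overlap for 10 of 34 genes, against 17.3% of all. They were higher in KO for Tomm22, Tomm40, Tomm34, Timm10b, Timm13, Chchd5 and Chchd6 (9.12% of all genes) and lower for Timm22, Timm21 and Tomm6os (8.16% of all). Timm22 had 49.7, 46.4 and 45.3 CPM in WT and 45.1, 43.0 and 42.3 CPM in KO, and Timm21 had 12.9, 10.1 and 11.1 CPM in WT and 9.43, 9.28 and 9.10 CPM in KO. Tomm6os, which lies antisense to Tomm6, was at 3.07, 4.10 and 3.09 CPM in WT and 1.47, 2.95 and 2.35 CPM in KO (edgeR, adjusted p = 0.53).

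**Figure D4:**
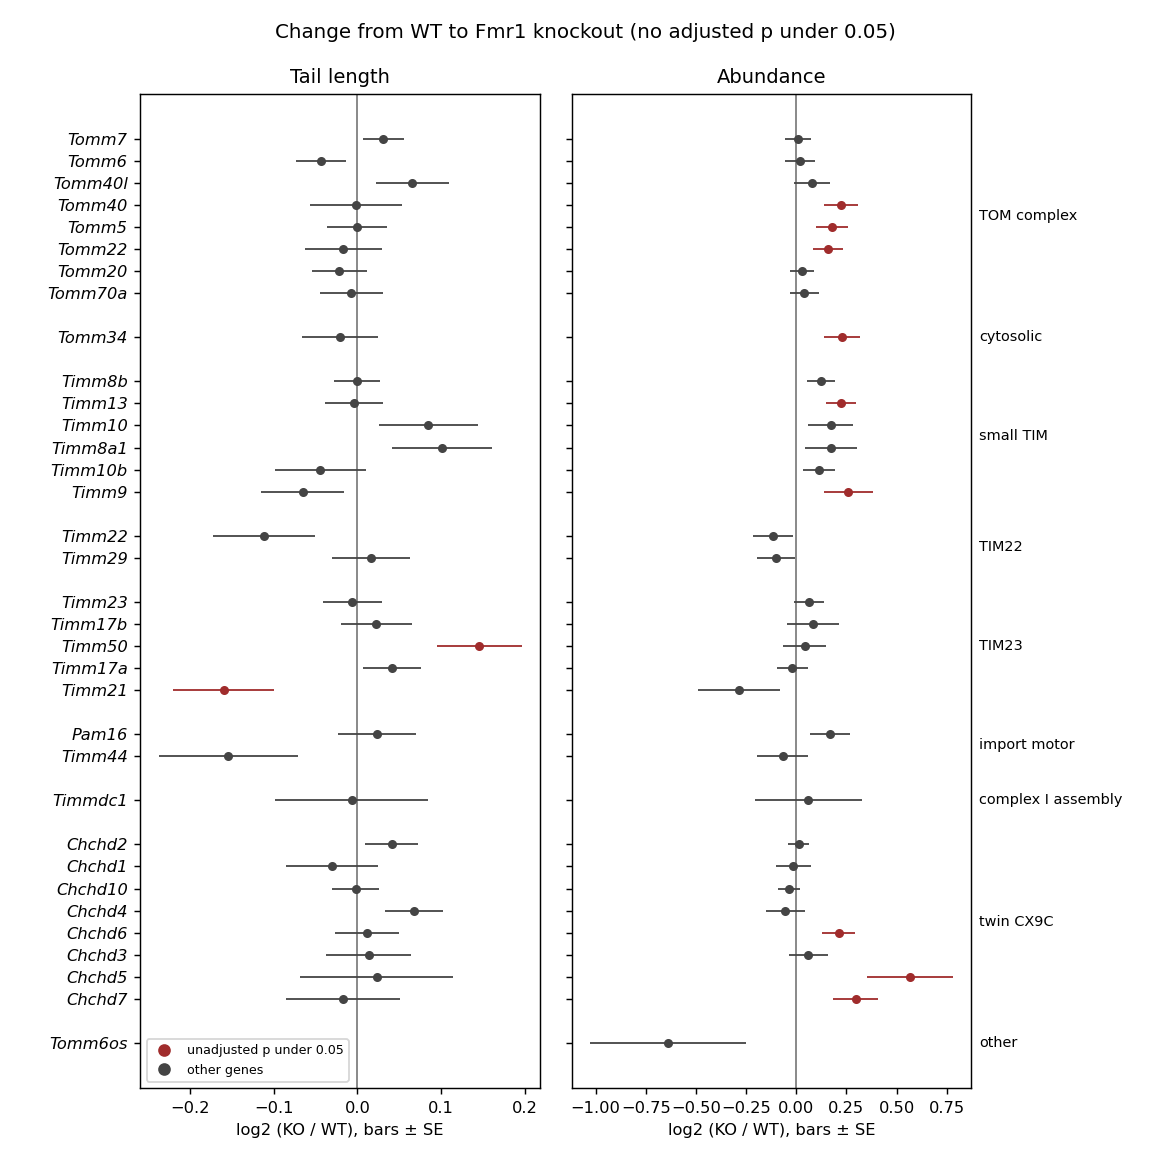
log2 change from WT to Fmr1 KO with its SE for each import gene, in tail length (left, limma on log2(nt + 1), 33 genes) and abundance (right, edgeR, 34 genes), ordered by role. Red points have an unadjusted p under 0.05 (2 genes in tail length, 9 in abundance) and none passed after adjustment over all genes.

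The same counts were read for the groups set beside the import genes. The fitted abundance change was above 0 for 35 of 39 complex I subunits, of which 3 passed (35 above 0 on recovered reads and 27 with limma on RPM). It was above 0 for 66 of 80 mitochondrial ribosomal proteins, of which 0 passed with edgeR (64 on recovered reads and 59 with limma on RPM). It was above 0 for 85 of 85 cytosolic ribosomal proteins, of which 6 passed (84 under both alternatives). Over all genes, 1.03% passed and 49.4% were above 0 (49.4% on recovered reads and 39.6% with limma on RPM). The summed level of 5 excitatory neuron markers ranged from 1444 to 1673 CPM in WT and from 1723 to 1793 CPM in KO, without overlap. The summed level of 5 vessel markers ranged from 216 to 227 CPM in WT and from 178 to 212 CPM in KO, and that of 5 choroid plexus markers from 34.1 to 837 CPM in WT and from 13.5 to 27.0 CPM in KO. No single excitatory neuron or vessel marker passed (edgeR, 0 of 5 each). The part of these differences in the import gene values was not tested. The other marker lists, for astrocytes, oligodendrocytes, microglia, inhibitory neurons, blood and striatum, overlapped between genotypes. Single markers that passed were Ttr, 1 of 2 tested for the choroid plexus, lower in KO, and Sst, 1 of 6 for inhibitory neurons, higher in KO (edgeR).

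Among transcripts, edgeR called 0 of 58 import transcripts, where 0.517% of all 19933 were called. At an unadjusted p under 0.05, 5 were higher in KO (5.04% of all) and 1 lower (4.99% of all). DESeq2 called 0, with 3 at that p, where it called 73 of all 53390 transcripts with reads, a total that includes transcripts without an adjusted p. It gave no adjusted p for some import transcripts, among them those of Chchd7, Tomm34 and Chchd5 named below. The smallest p belonged to the second Chchd7 isoform (ENSMUST00000121651.7, 234 reads), with 6.48, 9.44 and 11.02 CPM in WT and 17.9, 11.6 and 14.8 CPM in KO (log2 change 0.72 ± 0.22; edgeR, adjusted p = 0.17). The KO samples lay above all WT samples, and with limma on RPM the log2 change was 0.45. The others among the 5 smallest were the main transcripts of Tomm34 (ENSMUST00000109384.9, log2 change 0.35 ± 0.12), Timm13 (ENSMUST00000020440.6, 0.21 ± 0.08), Chchd5 (ENSMUST00000035481.4, 0.57 ± 0.22) and Tomm40 (0.23 ± 0.10), with edgeR adjusted p from 0.25 to 0.41. On recovered reads that of Tomm34 was 0.23 and that of Chchd5 0.18, and with limma on RPM they were 0.18 and 0.15.

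The wider pathway gave 1 call. A list of 42 other import, processing and quality control genes, among them the motor chaperone Hspa9, the processing peptidases Pmpca and Pmpcb, and MICOS and twin CX9C genes, was read from the same fits. For tails, 0 of 41 passed (0% of all genes), and 30 were below 0 and 11 above, where 61.7% of all genes were below 0. The median WT tail of these 41 genes was 131 nt. The smallest p-values were those of Yme1l1, an inner membrane protease (166 ± 5.15 nt in WT and 153 ± 3.48 nt in KO), and Xpnpep3, an aminopeptidase (145.4 ± 23.1 and 175 ± 5.67 nt), both with limma adjusted p = 0.75. For abundance, 22 were above 0 and 20 below, where 49.4% of all genes were above 0. Lonp1, which encodes the matrix protease that degrades damaged proteins, was the 1 of 42 that passed, where 1.03% of all genes did. Lonp1 was at 33.7, 32.8 and 27.6 CPM in WT and 43.3, 44.3 and 44.0 CPM in KO, without overlap (log2 change 0.49 ± 0.11; edgeR, adjusted p = 0.0254). The call was lost with RPM (log2 change 0.32; limma, adjusted p = 0.27), with all reads recovered from RPM (0.37; edgeR, adjusted p = 0.13), and without any 1 library other than WT replicate 1 (edgeR, adjusted p from 0.0509 without WT replicate 2 to 0.11 without KO replicate 3). Without WT replicate 1 the edgeR adjusted p was 0.00827, and DESeq2 gave no adjusted p for this gene.

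Some import genes overlap other gene records in position. The annotation places Chchd2, Timm10b, Tomm6, Chchd3 and Chchd6 on the same strand as an overlapping gene record (Phkg1, Gm45799, Gm21981, Gm42895 and Gm43903). The same holds for Tomm6os with Frs3, and for Timm23 and Tomm20 with snoRNA records (Gm23946 and Gm26397). These overlaps are of whole gene spans and not of exons. Reads of these pairs, like those of any genes with near-identical pseudogene copies, may be uncertain in their assignment, which was not tested.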

How the data were processed

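Per the file headers, the authors deposited for every transcript and sample a mean poly(A) tail (nt), its tail read count and an RPM value. The method of tail estimation was not given in the sources used here. Per the submitters' processing notes, the tools were SAMtools 1.9, Salmon 1.5.2, minimap2 2.17 and DESeq2, and the build was mm10, with no roles stated. Transcripts were matched to GENCODE mouse release 21 (mm10), which held 163 of 163 import transcripts and 97.9% of all. The import genes and the lists beside them were chosen with earlier results of these data known.

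Gene tails were read-weighted means. Tails with at least 10 reads in each of 6 samples were tested as log2(nt + 1) with limma 3.58.1 (variance trend on mean tail), isoform pairs likewise. Abundance used deposited tail read counts in edgeR 4.0.16 (TMM, filterByExpr, quasi-likelihood), and CPM were TMM-scaled. Deposited RPM were tested as log2(RPM + 1), or as whole reads, since 99.9% or more of values in each library were whole multiples of 1 read within 0.01; on these reads edgeR called 101 genes. DESeq2 1.42.0 was an alternative. The p-values of limma and edgeR were adjusted over all features tested (Benjamini-Hochberg, threshold 0.05). DESeq2 adjusted by its own default, which gave some features no adjusted p. Fits were tested on simulated data, with planted changes larger than any in the main KO against WT fits of import genes. These runs do not bear on smaller changes. The limits given for genes without reads cover counting error only.

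Named genes were the 3 most-read of each role, members past a threshold, the 5 smallest p-values of each comparison, the 4 longest and shortest tails, members whose genotypes did not overlap, and passing genes of the wider pathway, otherwise the 2 smallest p-values.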

Additional observations from a re-analysis of the deposited data

How the results depend on the processing

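The number of import genes and transcripts called between KO and WT was 0 for tail length and for abundance under every alternative run: other read minimums, scales, centring, weights and variance trends for tails; DESeq2, other size factors, no filter, RPM and recovered reads for abundance; the replicate block; and leaving out each library. DESeq2 gave no adjusted p for some import genes and transcripts, so its 0 covers only the rest. No gene or transcript among the 5 smallest p-values of each comparison reversed its direction in the fits that gave it an adjusted p. Over all genes, edgeR called 129 for abundance, 249 without the filter, 81 with DESeq2, 40 with limma on RPM and from 57 to 206 with 1 library left out. For tails, limma called 0 genes, 28 with read weights and 12 with a trend on read number, none of them import genes.

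The isoform count, 3 of 13, was 0 in KO samples alone, 1 in WT samples alone (Timm44, of 14 pairs) and 3 on the nt scale. It ranged from 0 to 3 with 1 library left out. At 30 reads it was 0 of 6 pairs, but the pairs of Tomm40, Timm9 and Timm44 had too few reads to be among them, so that 0 does not bear on their calls. The labels do not say whether replicate numbers pair the samples. Same-numbered deviations correlated at 0.0085, 0.0054 and 0.0003 in tails and at 0.025, -0.065 and 0.048 in abundance, which cannot exclude a pairing by design. With the replicate block the isoform count was 0 (limma, adjusted p from 0.0518 to 0.0839), and 92 genes and 171 transcripts were called for abundance over the whole table, against 129 and 103 without it. It changed no other call. The KO minus WT difference in median tail, 3.61 nt, ranged from 0.774 to 4.62 nt. Depth limits Timm21, Chchd5, Timmdc1, the retained-intron RNAs of Timm44 and Tomm34, and the second isoforms of Tomm40 and Timm9. Each of these rests on at most 207 reads over the 6 samples.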
